A study of Arabidopsis thaliana with 8 samples.

Results

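Salicylate and jasmonate are the main defence hormones of Arabidopsis thaliana, and this set holds probe sets of the transcripts most often used to read them. The set has 9 of the 22810 probe sets on the array, chosen by probe set identifier, 3 for salicylate markers and 6 for markers of jasmonate, ethylene or both. The salicylate markers are PR1, PR2 (251625_at) and PR5 (259925_at). The others are PR4 (258791_at), PDF1.2, PDF1.2b (257365_x_at), THI2.1 (259802_at), VSP2 and OSM34. OSM34 is counted with these here, although it is a less specific hormone readout than the others. The platform's annotation table names 4 of the 9, namely PDF1.2, PDF1.2b, THI2.1 and OSM34. The names of the other 5 come from the definition of the set and were not checked against a probe table here.

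RNA of total tissue, labelled with biotin, was hybridised to 8 ATH1 arrays, on which a probe set sums up several short probes of a transcript. The 4 arrays of 15B carry RNA of a mutant obtained with ethyl methanesulfonate from the line of the other arrays, in the Ler ecotype. The 4 arrays of the silenced parent carry RNA of that Ler line (CHS), which is homozygous for a single insert with an extra chalcone synthase gene that silences the resident TT4 gene. Both lines were untreated, grew at 22 degrees C in 18 h of light on agar with sucrose and were sampled at growth stage 1.04, with 10 plants pooled and 4 biological replicates per the design text. 15B is a single mutant line, and no label states the altered gene, although the series title speaks of hog1, so a difference below belongs to the line and cannot be assigned to 1 mutation. In RNA of whole plants, fewer cells expressing a gene and less of its RNA per cell cannot be told apart.

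As background, salicylate accumulates when plants meet pathogens that feed on living cells, and the coactivator NPR1 with TGA transcription factors then switches on PR1, PR2 and PR5. Jasmonate is made after wounding, insect feeding and attack by pathogens that kill cells, and it acts through the receptor COI1. Its response has an arm shared with ethylene, which drives PDF1.2 and PR4 through ERF factors, and an arm driven by MYC factors, which is read by VSP2. The hormone pathways are known to restrain each other in many settings, so their markers are often read side by side.

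Arrays correlated at r from 0.972 to 0.984 within lines and from 0.934 to 0.948 between them, over probe sets. Scanner background was between 77.6 and 101.3 on 7 arrays and 197.8 on replicate 4 of the silenced parent. As a readout of RNA integrity, actin's 3' probe set over its 5' probe set gave 5.24 ± 0.954 in 15B and 6.61 ± 1.43 in the silenced parent (SD, n = 4 each, exact permutation p = 0.143, two-sided). The same ratio was 1.72 in 15B and 1.94 in the silenced parent for GAPDH (exact permutation p = 0.343) and 3.07 in 15B and 3.50 in the silenced parent for ubiquitin (exact permutation p = 0.143). All 3 ratios were lower on average in 15B, and their part in the results below was not tested. Few organ markers could be read, namely LHCB4.1 of leaves at a log2 fold change of -0.06 and the root hair expansins EXPA7 and EXPA18 at -0.09 and 0.08. These did not pass the test, and the part of organ makeup in the results below was not tested.

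Of the 9 markers, 4 rose in 15B and 0 fell, namely PR1 and OSM34 strongly and PR2 and PR4 by less. They belong to both hormone classes. Among them are 2 of 3 salicylate markers (PR1 and PR2) and 2 of 6 jasmonate and ethylene markers (PR4 and OSM34). PR2 stood at the threshold (limma adjusted p = 0.0485) and passed in 8 of 18 alternative fits, while the other 3 passed in all 18. PR5, PDF1.2, PDF1.2b, THI2.1 and VSP2 did not pass. A call is an adjusted p under 0.05 from limma with Benjamini-Hochberg adjustment over all 13822 tested probe sets, and 6.7% of these were called, made up of 3.13% higher and 3.57% lower in 15B. All 9 markers passed the filter, a mean signal of at least 30 over the 8 arrays. Fold changes are 15B minus silenced parent on the log2(signal + 10) scale, which understates the change of dim probe sets.

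**Figure D1:**
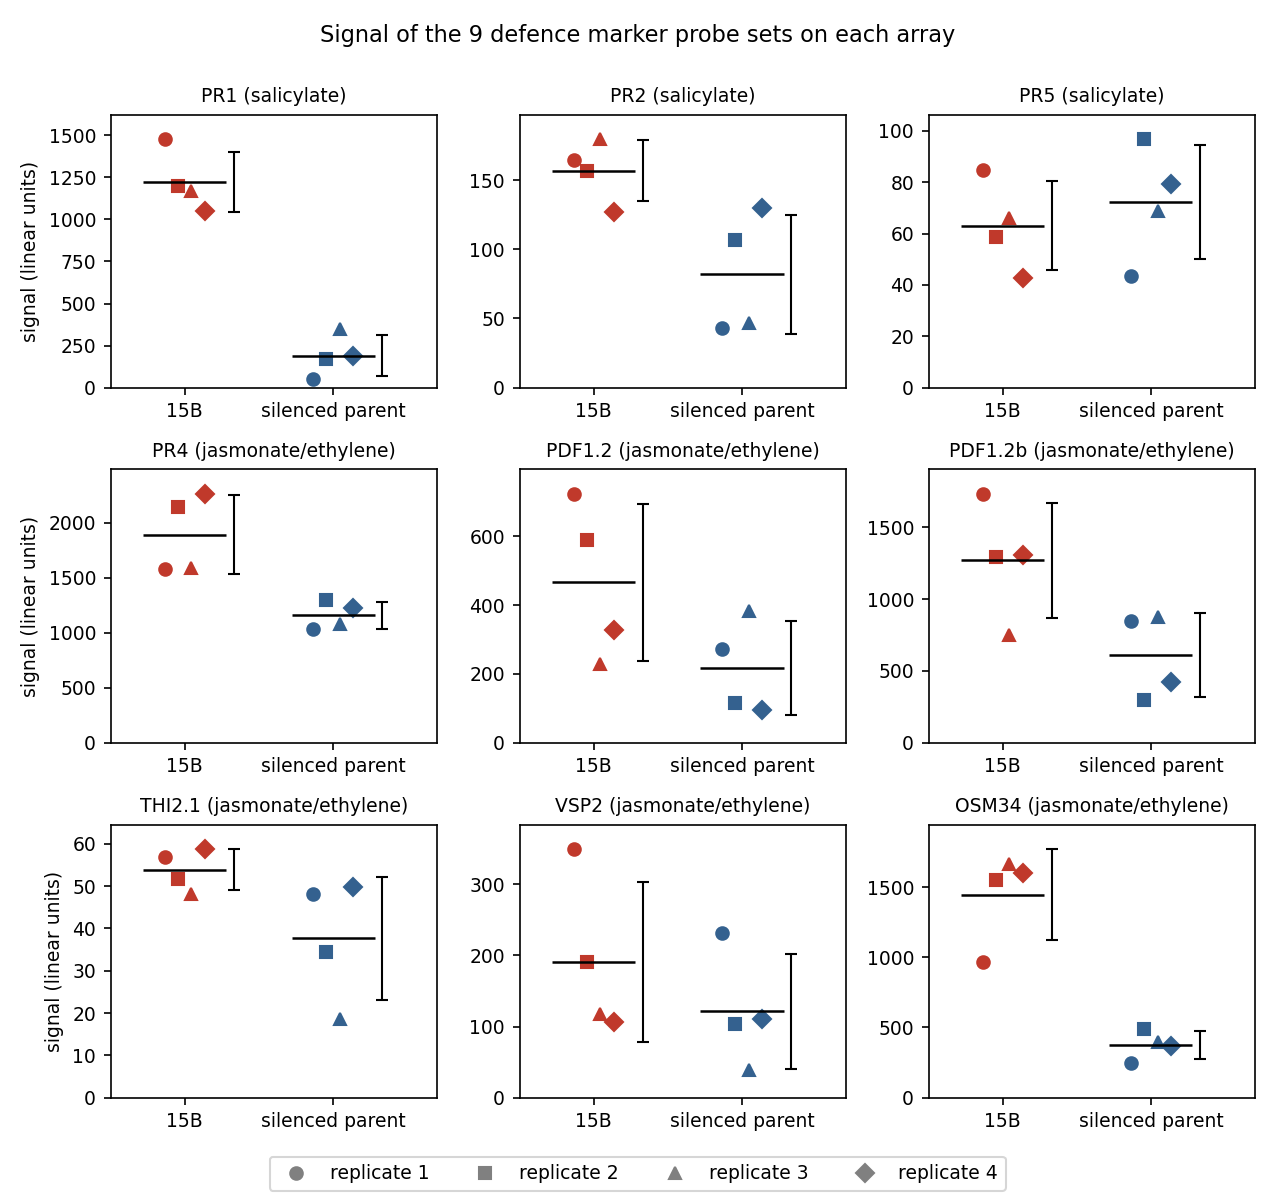
Linear signal of each of the 9 marker probe sets on the 4 arrays of 15B (red) and the 4 of the silenced parent (blue), with the replicate shown by the symbol, the mean as a line and the SD as a bar. The lines do not overlap for PR1, PR4 and OSM34 and overlap for the other 6.

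PR1, a small secreted antimicrobial protein and the standard readout of salicylate, changed most. Its signal was 1475, 1196, 1171 and 1049 on the arrays of 15B, against 53.9, 168, 350 and 191 on those of the silenced parent. Every array of 15B lay above every array of its parent, and the arrays of the parent were far apart, differing 6.5-fold from lowest to highest, against 1.41-fold in 15B. PR1 averaged 1222 ± 180.4 in 15B and 190.8 ± 122 in the silenced parent (SD, n = 4 each). The log2 fold change was 2.85 (SE 0.37, 95% interval 2.04 to 3.67), or 7.22-fold, with a limma adjusted p of 4.51e-04. It ranked 55 from the top among the 13822 tested probe sets.

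PR2, a beta-1,3-glucanase that cuts a polymer of fungal and oomycete walls, rose by less on average. It was at 164, 157, 180 and 127 on the arrays of 15B, against 43.4, 107, 47.1 and 130 on those of the silenced parent. The lines overlapped only in that replicate 4 of the parent lay just above replicate 4 of 15B, and replicates 1 and 3 of the parent lay far below both. The log2 fold change was 0.98 (SE 0.27, 95% interval 0.40 to 1.56, limma adjusted p = 0.0485). This call stood at the threshold, since leaving out any 1 array of 15B, or replicate 1 or 3 of its parent, gave a limma adjusted p of 0.0616 to 0.134. It was 0.0984 with no filter and 0.103 with robust eBayes by the same tool.

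PR5, a thaumatin-like protein and the remaining salicylate marker, gave no call. Its signal was 84.6, 58.5, 66.1 and 42.8 in 15B, against 43.6, 96.7, 68.9 and 79.4 in the silenced parent, and the ranges overlapped almost entirely. The log2 fold change was -0.16 (SE 0.21, limma adjusted p = 0.714), with a 95% interval from -0.61 to 0.30, so a rise above 1.23-fold lay outside the interval. Within arrays, PR1 relative to PR5 was 3.01 higher in 15B on the log2 scale, and PR2 relative to PR5 was 1.14 higher, both without overlap between the lines. PR1 relative to PR2 was 1.87 higher, and there the lines overlapped. The 3 salicylate markers thus changed unequally.

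PR4, a hevein-like protein that binds chitin and answers to ethylene and jasmonate, rose modestly. Its signal was 1583, 2147, 1586 and 2260 on the arrays of 15B, against 1032, 1300, 1080 and 1223 on those of the silenced parent. The lines did not overlap, and the parent's arrays stayed within 1.26-fold of each other. PR4 had a log2 fold change of 0.69 (SE 0.13, 95% interval 0.42 to 0.96, limma adjusted p = 0.00519).

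OSM34, an osmotin-like protein of the same thaumatin family as PR5, rose most among the markers of the jasmonate and ethylene class. It is also known to answer to abscisic acid and salt, so it is a less specific hormone readout than the others. The signal was 963, 1550, 1662 and 1604 on the arrays of 15B, against 246.7, 491, 398 and 369 on those of the silenced parent. Replicate 1 was the lowest array in both lines, and still the lines did not overlap. For OSM34 the log2 fold change was 1.92 (SE 0.20, 95% interval 1.49 to 2.36, limma adjusted p = 5.85e-05), or 3.79-fold. Relative to OSM34 within arrays, PR5 was 2.08 lower in 15B on the log2 scale, again without overlap.

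The defensins PDF1.2 and PDF1.2b, small antifungal peptides and the usual readout of the arm shared by jasmonate and ethylene, were higher on average in 15B without passing the test. PDF1.2 was at 722, 589, 228 and 326 on the arrays of 15B, against 273, 115, 383 and 95.2 on those of the silenced parent. Replicates 3 and 4 of 15B lay below the highest array of the parent, and replicate 3 also below the next. The log2 fold change was 1.15 (SE 0.42, 95% interval 0.24 to 2.05, limma adjusted p = 0.127).

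PDF1.2b was at 1730, 1292, 751 and 1311 on the arrays of 15B, against 844, 300.1, 878 and 419 on those of the silenced parent. The overlap came from replicate 3 of 15B. Its log2 fold change was 1.12 (SE 0.32, 95% interval 0.43 to 1.82, limma adjusted p = 0.0557), and it passed when replicate 3 of 15B, or replicate 1 or 3 of its parent, was left out (limma adjusted p = 0.0303 to 0.0382). The suffix _x_at of its probe set marks probes that match other sequences too, and the signal cannot be assigned to 1 defensin gene. PDF1.2 relative to PDF1.2b within arrays differed by 0.02 on the log2 scale between the lines. Both are counted among the 6 jasmonate and ethylene markers, as the set is defined, although they are not independent of each other.

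THI2.1, a thionin induced by jasmonate, was near the filter. Its signal was 56.9, 51.7, 48.1 and 58.7 on the arrays of 15B, against 48.1, 34.4, 18.5 and 49.8 on those of the silenced parent. The upper part of the parent's range met the lower part of that of 15B (log2 fold change 0.48, SE 0.20, limma adjusted p = 0.194).

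VSP2, a vegetative storage protein with phosphatase activity and the readout of the MYC arm, overlapped widely between the lines. Its signal was 349, 190, 117 and 107 on the arrays of 15B, against 232, 104, 38.9 and 111 on those of the silenced parent. Replicate 1 was the highest array in both lines. VSP2 had a log2 fold change of 0.68 (SE 0.43, limma adjusted p = 0.387), with a 95% interval from -0.25 to 1.60 that holds both no change and a 3-fold rise. Its probe set carries the suffix _s_at, which marks probes shared by several transcripts, so near-identical storage protein genes may share this signal.

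**Figure D2:**
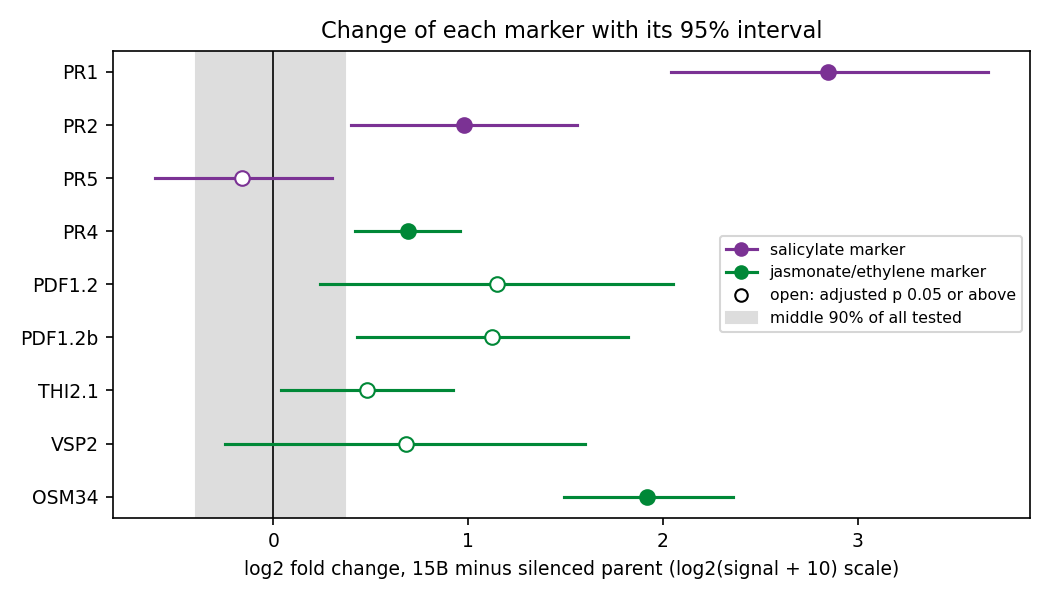
Log2 fold change of each marker, 15B minus silenced parent, with its 95% interval from limma; filled points passed the adjusted threshold of 0.05, and the grey band spans the middle 90% of all tested probe sets (-0.40 to 0.37). PR1, PR2, PR4 and OSM34 are filled, and PR5 alone lies below 0.

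Set side by side, the shifts of the hormone classes could not be told apart at the spread of these arrays. The mean log2 level of the 3 salicylate markers was 8.18, 7.91, 8.01 and 7.62 on the arrays of 15B, against 5.83, 7.03, 6.88 and 7.09 on those of the silenced parent, a difference of 1.22. The mean of the 6 jasmonate and ethylene markers was 9.23, 9.14, 8.61 and 8.92 in 15B, against 8.28, 7.81, 7.94 and 7.85 in the silenced parent, a difference of 1.01. This mean counts both defensins and OSM34, a less specific readout with the largest shift of the class (1.92), and was not computed without OSM34. The lines did not overlap in either mean, which is given without a test because the members were chosen with results of these data known. The salicylate shift exceeded the other by 0.22, less than the SD of this difference over arrays, which was 0.31 in 15B and 0.80 in the silenced parent. The salicylate shift was 0.93 when replicate 1 of the parent, with the lowest salicylate mean, was left out.

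The salicylate mean rested on unequal members, at -0.16, 0.98 and 2.85, while the 6 jasmonate and ethylene markers lay between 0.48 and 1.92 and were all positive. The median log2 fold change was 0.98 over the 9 markers, and -0.03 over all tested probe sets, of which 44.4% were positive. The lines did not overlap for 3 of the 9 markers, all with 15B higher, against 13.6% of all tested probe sets in either direction, 5.58% with 15B higher and 8.07% with 15B lower.

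The markers also stood apart in the spread between replicates of a line. This is a description, since the members were chosen with results of these data known. The pooled SD within lines was 0.85 for VSP2, 0.83 for PDF1.2, 0.75 for PR1, 0.64 for PDF1.2b and 0.52 for PR2 on the log2 scale, against a median of 0.16 over all tested probe sets. Among the 500 tested probe sets nearest in mean level, 8 of the 9 markers stood at or above the 95th percentile of this SD. PR4 was the exception, at 0.22 and the percentile 92.0. For PR1, PR2 and THI2.1 the spread lay mostly in the silenced parent. Their log2 SD was 0.20, 0.20 and 0.11 in 15B, against 1.04, 0.71 and 0.50 in the parent. VSP2 and PDF1.2 were spread in both lines, at 0.74 and 0.75 in 15B and 0.94 and 0.91 in the parent. PR4 alone had the larger SD in 15B (0.27 against 0.15). The spread sets what could be called here, since PDF1.2 with a mean change of 1.15 did not pass while PR4 with 0.69 did.

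**Figure D3:**
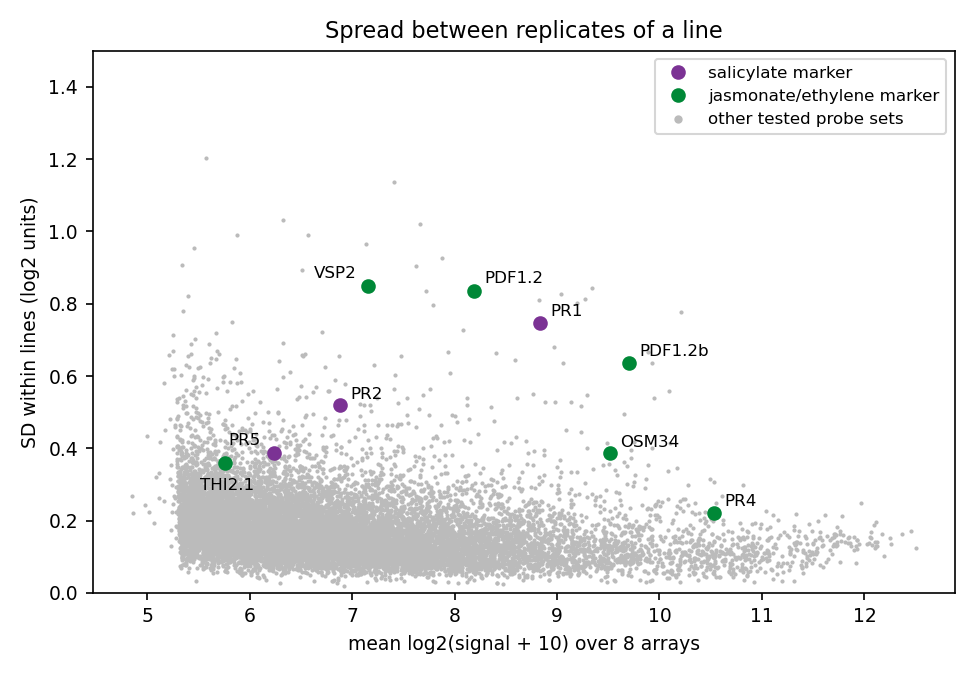
SD within lines (log2 units) against the mean log2(signal + 10) over 8 arrays, for the salicylate markers (purple), the jasmonate and ethylene markers (green) and all other tested probe sets (grey). VSP2, PDF1.2, PR1 and PDF1.2b lie far above the bulk, and PR4 lies closest to it.

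The markers did not vary together from array to array as 1 group. PDF1.2 and PDF1.2b had a correlation of residuals from the line means of 0.90 over the 8 arrays, and PR2 and PR5 one of 0.72. These are descriptions from 36 pairs of markers measured in the same 8 RNA samples. PR2 ran against PDF1.2 (-0.72) and PDF1.2b (-0.80), and VSP2 against OSM34 (-0.76). The other salicylate markers did not share the opposition to the defensins to the same degree. With PDF1.2 and PDF1.2b, PR1 was at 0.11 and -0.05, and PR5 at -0.20 and -0.47. Nor did PR2 run against VSP2 (0.07) or THI2.1 (0.33). Opposition of the hormone classes was not tested.

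The opposition of PR2 and the defensins was plainest in the silenced parent. Replicates 2 and 4 had the higher PR2 signals (107 and 130) with the lower PDF1.2b signals (300.1 and 419), and replicates 1 and 3 the lower PR2 signals (43.4 and 47.1) with the higher PDF1.2b signals (844 and 878). Between the lines PR2 and PDF1.2b were not opposed, as the mean of each was higher in 15B. Within 15B the correlation of PR2 with PDF1.2b was -0.42 and with PDF1.2 -0.01, against -0.91 and -0.96 in the silenced parent (4 arrays each). Replicate 4 of the silenced parent, with a PR2 signal of 130, is the array with the scanner background of 197.8, while replicate 2, with a PR2 signal of 107, had the lowest background (77.6).

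**Figure D4:**
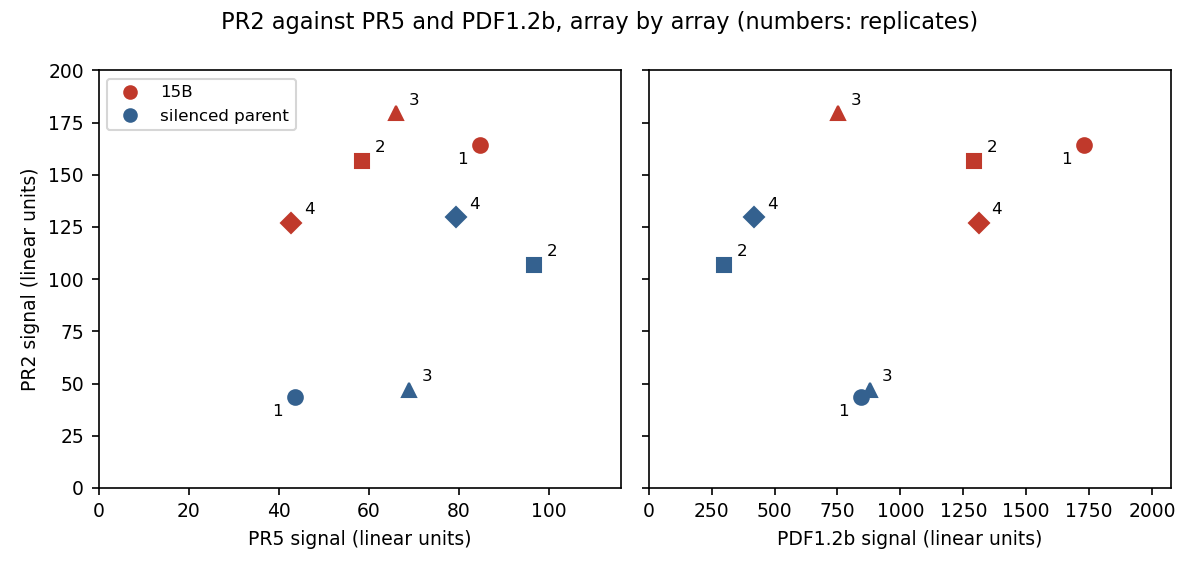
PR2 signal against PR5 signal (left) and PDF1.2b signal (right), in linear units, for each array of 15B (red) and of the silenced parent (blue), numbered by replicate. In the right panel parent replicates 2 and 4 lie at the upper left and replicates 1 and 3 at the lower right of the parent's points, and all arrays of 15B but replicate 4 lie above 130 in PR2.

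Outside the markers, the genes whose residuals followed them most closely over the 8 arrays, among 7453 tested probe sets naming 1 gene, were not called between the lines. They were AT1G34220 (0.991), RALFL22 (0.973) and AT2G31820 (0.972) for PR1. For PDF1.2 they were AT5G12900 (0.965), the chloroplast gene rpl33 (0.963) and AT1G04340 (0.953), and for VSP2 they were AT3G07010 (0.990), AT3G09250 (0.978) and AT1G68600 (0.970). Their log2 fold changes lay between -0.26 and 0.29. As the highest of 7453 correlations over 8 arrays, these values are high by selection, and a link to the markers was not tested.

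The hormone pathways themselves could be read for few genes. Of 161 loci in 8 defence and hormone lists, 29 had a named probe set and 17 were tested, of which 3 rose, 1 fell and 13 did not pass, where 3.13% of all tested probe sets were called higher and 3.57% lower. The median log2 fold change of the 17 was 0.13, against -0.03 over all tested probe sets. Among the calls, UGT76B1 and GRX480 reached the filter only through 15B, and AT1G66100 only through the silenced parent. Neither the count nor the median is therefore a measure of the lists. Genes of most receptors, regulators and synthesis enzymes, such as NPR1, COI1 and the JAZ repressors, were not analysed here.

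Of 6 matched genes in the salicylate lists, 2 had a mean signal over the filter, and each reached it only through 15B, since their means in the silenced parent were 24.3 for UGT76B1 and 28.8 for GRX480. That both were called is therefore no measure of the lists. The other 4 genes, BSMT1, UGT74F1, SAG101 and WRKY53, had log2 fold changes of 0.42, -0.13, -0.06 and 0.15 in the fit with no filter, and none passed there (limma adjusted p = 0.418 to 0.917). UGT76B1, a glucosyltransferase that acts on salicylate and related immune signals, was at 38.9, 48.2, 42.6 and 59.3 in 15B, against 19.7, 20.2, 27.3 and 29.9 in the silenced parent (log2 fold change 0.74, SE 0.15, limma adjusted p = 0.0117). GRX480, a glutaredoxin that binds TGA factors and is induced by salicylate, was at 42.5, 43.2, 68.9 and 42.9 in 15B, against 29.7, 31.9, 28.3 and 25.3 in the silenced parent (0.59, SE 0.15, limma adjusted p = 0.0343). The lines did not overlap for either gene. The GRX480 call was lost without any 1 array other than replicate 1 of 15B (limma adjusted p = 0.0507 to 0.0864) and was lost at 0.0712 with no filter.

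The jasmonate and ethylene lists had 0 calls by limma among 5 tested genes, of which 3 had an unadjusted p under 0.05, as 21.5% of all tested probe sets did. OPCL1, a ligase of jasmonate synthesis, was at 0.32 (SE 0.10, limma adjusted p = 0.0662), and AIM1, an enzyme of peroxisomal beta-oxidation, at -0.08. MYC4 was at 0.45 (SE 0.17, limma adjusted p = 0.136) and MYC3 at 0.04, both transcription factors of the MYC arm. EIN3, the main transcription factor of ethylene signalling, was lower in all 4 arrays of 15B at a log2 fold change of -0.29 (SE 0.08), with a limma adjusted p of 0.0577. Leaving out 1 array took OPCL1 past the threshold (replicate 3 of 15B, limma adjusted p = 0.0419), as well as MYC4 (replicate 4 of 15B, 0.0491) and EIN3 (replicate 1 of the silenced parent, 0.0313). EIN3 also passed with array weights (0.0477).

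Relatives of the marker proteins moved in both directions. CHI, a chitinase gene (AT2G43570), was at 85.0, 126, 72.8 and 101 on the arrays of 15B, against 20.7, 69.4, 35.7 and 51.2 on those of the silenced parent (log2 fold change 1.03, SE 0.25, limma adjusted p = 0.027). The call did not survive the omission of replicate 2 or 4 of 15B, or of replicate 3 of its parent (limma adjusted p = 0.0654 to 0.0896), nor the use of no filter (0.0654). ATLP-1 and AT4G38670, both of the thaumatin family, were at 0.21 and 0.05 and did not pass.

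AT1G66100, a thionin gene like THI2.1, fell in 15B to signals far under the filter of 30, and it was tested because the silenced parent was high. Its signal was 4.4, 5.3, 5.7 and 13.5 in 15B, against 360.6, 180, 369 and 232 in the silenced parent (log2 fold change -4.07, SE 0.22, limma adjusted p = 8.17e-08). The size of this change depends on the pseudocount, being -5.18 with a pseudocount of 1 and -3.04 with one of 30, and the lines did not overlap. Of the 5 other tested defensin genes none passed by limma, 1 having an unadjusted p under 0.05, a share near the 21.5% of all tested probe sets. This was LCR69, at 0.29 (SE 0.08, limma adjusted p = 0.0513). LCR69 passed in 6 of 18 alternative fits. Among these were the fits without replicate 1 of 15B (limma adjusted p = 0.0397) or replicate 2 of its parent (0.0407). It also passed with array weights (0.0245), robust eBayes (0.0484) and the filter at 60 (0.0468). PDF2.1 was at -0.31, LCR68 at -0.15, PDF2.5 at 0.13 and PDF1.4 at 0.26. In the list of camalexin and pattern-triggered defence, the immune kinase BIK1 was at -0.06 without passing.

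**Figure D5:**
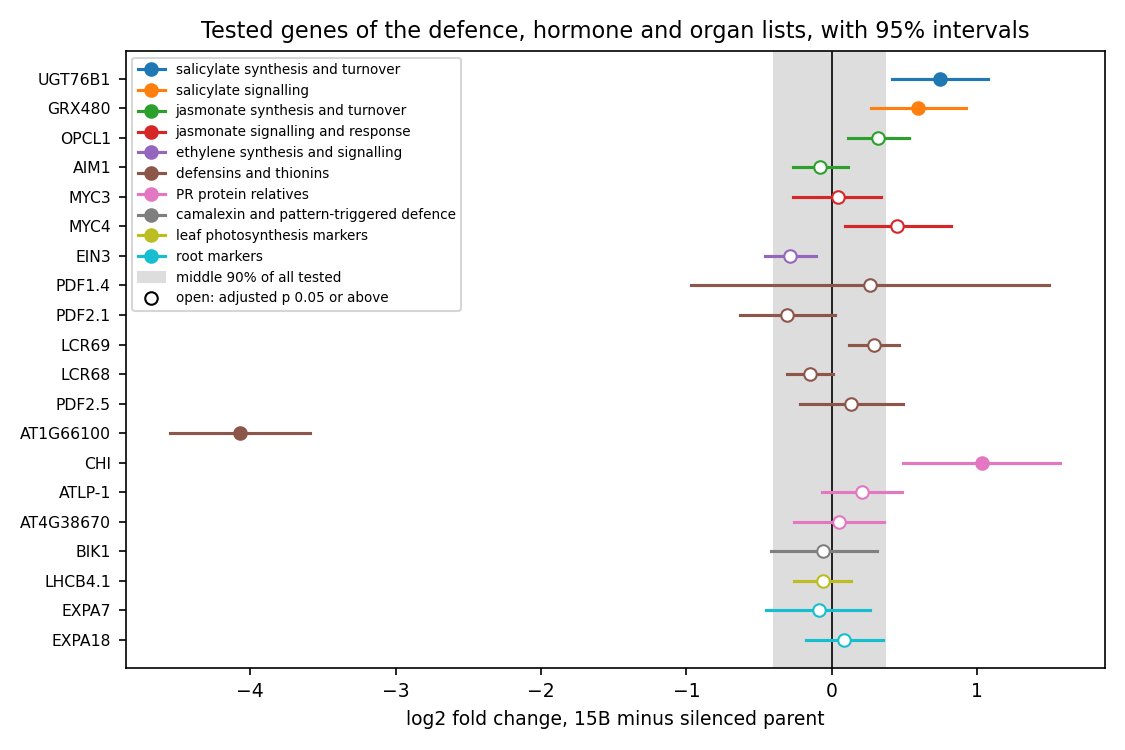
Log2 fold change, 15B minus silenced parent, with 95% intervals for the 17 tested genes of the defence and hormone lists and the 3 tested organ markers, coloured by list; filled points passed the adjusted threshold of 0.05. UGT76B1, GRX480 and CHI are filled above 0, and AT1G66100 is filled at -4.07.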

How the data were processed

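The authors deposited 1 linear intensity for each probe set on each array. The 2% trimmed mean of each deposited array was 100.0, so the arrays shared a scale and every change is relative to the bulk of probe sets. The summarising software is not given in the sources used here. After removal of 64 control probe sets, log2(signal + 10) was fitted with limma 3.58.1 in R 4.3.3 (lmFit, eBayes with an intensity trend, two-sided, Benjamini-Hochberg), on the 13822 probe sets with a mean of at least 30. Precision is limited by the number of arrays. The limma p-values set the difference between the lines against the spread between these samples, moderated over all tested probe sets. They cover replicates of 1 mutant line only. Gene names come from GEO's platform table of 2016, updated through Entrez numbers to RefSeq TAIR10.1 (13436 of 13513 naming 1 gene matched, 503 named several genes, 8730 were unnamed). Members and lists were chosen with earlier results of these data known. Named are all members, up to 4 called genes per list (otherwise the 2 with the smallest p), here extended to every tested list gene, and the 3 genes most alike to PR1, PDF1.2 and VSP2. The extension was made after values were seen. No pair of arrays shared more than 0.958% of its values. The steps were tested on simulated data. Of 50 planted changes per size, 24 were recovered at a log2 size of 0.5, 47 at 1 and 50 at 2 and at 4. Of 185 calls 14 were false, and 0 calls were made with no change planted. A missing call for a change near 0.5 or smaller therefore says little. The planted changes were drawn from all tested probe sets, with a median SD within lines of 0.16, against 0.52 for the 9 markers. The recovered shares therefore do not apply to the markers, for which a missing call near 1 also says little. Alternatives were other scalings, pseudocounts, filters and variance models, array weights, leaving out each array, and the replicate number as a block. Promoter and protein sequences, planned as descriptions, were not analysed here.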

Additional observations from a re-analysis of the deposited data

Results flagged for a closer look

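In 10 of 86 sets of 4 values, the gap between 1 array and the nearest other array of its line, divided by the range of the line, exceeded Dixon's 95% critical value. By its construction that value flags about 1 in 20 independent sets, and these sets share the same 8 arrays and include means over the markers, so the count was not tested against it. Among the markers this held for OSM34, at 963 in replicate 1 of 15B against 1550 to 1662 in the others. It also held for the salicylate mean, at 5.83 in replicate 1 of the silenced parent against 6.88 to 7.09. Without that replicate PR1 had a log2 fold change of 2.38 and without replicate 1 of 15B OSM34 had one of 2.1, and both calls were kept. Among list genes in 15B, GRX480 was at 68.9 in replicate 3 against 42.5 to 43.2, MYC3 at 56.3 in replicate 2 against 85.4 to 88.4, and AT1G66100 at 13.5 in replicate 4 against 4.4 to 5.7. In the silenced parent, EIN3 was at 252.6 in replicate 1 against 289 to 294, and AT4G38670 at 55.8 in replicate 4 against 36.5 to 38.0. In the scanner's own statistics, background was 197.8 in replicate 4 of that line, with 77.6 to 94.3 elsewhere in it, and noise was 13.5, with 3.91 to 5.15 elsewhere. The count of outlier cells was 1353 in replicate 2 of 15B, with 403 to 505 in its other arrays.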

How the results depend on the processing

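PR1, PR4 and OSM34 passed in all 18 alternatives, with log2 fold changes of 2.38 to 3.21, 0.60 to 0.77 and 1.74 to 2.1. PR2 passed in 8 of 18, PDF1.2b in 4 and VSP2 in 1, and PR5 and PDF1.2 passed in 0 (THI2.1 in 0 of 17), with the same direction as reported in each. Salicylate markers called were 1 with a pseudocount of 1, no filter, no intensity trend and robust eBayes. With a replicate block in the fit, the jasmonate and ethylene markers called were 4, with PDF1.2b and VSP2 added (limma adjusted p = 0.0353 and 0.0488), and the list genes called lower were 2, as with array weights. The block also took EIN3 (0.0482) and LCR69 (0.0461) past the threshold, changed no other call of a named gene and gave 1078 calls in all. Deviations from line means of arrays with the same number had correlations of 0.25 for replicate 1 and -0.01, 0.05 and 0.05 for the others. These values do not settle whether the numbers pair the samples. The main fit, as planned, did not pair them. With no filter 1 list gene was called higher, a fit that tests more probe sets. Leaving out each array gave 1 to 2 salicylate and 2 to 3 jasmonate and ethylene calls, 1 to 4 list genes higher and 1 to 2 lower, and 523 to 993 probe sets called (588 without replicate 2 of 15B, 523 without replicate 3 of the silenced parent), with 232 to 541 lower, against 926 and 494 in all arrays. It also turned the sign of list genes near 0, with log2 fold changes of -0.02 to 0.17 for MYC3, -0.10 to 0.76 for PDF1.4, -0.01 to 0.17 for AT4G38670, -0.22 to 0.11 for BIK1 and -0.01 to 0.13 for EXPA18. The cause was not tested. Signal near background limits the dim genes THI2.1, GRX480 and UGT76B1.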
